A study of Mus musculus with 9 samples.

Results

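Retinoic acid genes were followed through the first days of differentiation of mouse embryonic stem (ES) cells. The 9 genes were chosen by symbol, without use of their values: Stra6, Dhrs3, Aldh1a2, Crabp1, Crabp2, Rara, Rarb, Rarg and Cyp26a1. All 9 had a probe set annotated to that gene alone, out of 18193 genes on the array. Each gene was read by its brightest probe set. Rarg had a second one, which was used as a check.

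Each of the 9 arrays was 1 bulk RNA sample with no replicate. The Dox- cells were differentiated without doxycycline for 0.5, 1.5, 2.5 or 3.5 days (D0.5 to D3.5) in medium with 10% fetal bovine serum and no leukemia inhibitory factor (LIF). The Dox+ cells were differentiated in the same medium with 1 µg/ml doxycycline and sampled on the same 4 days. Undifferentiated ES cells were kept with 2000 units/ml LIF, 10% serum replacement, 1% fetal bovine serum and 1 µg/ml doxycycline. The cells carry a constitutively active PKA (the protein kinase that cyclic AMP switches on) under doxycycline control, and by its title the study asks how PKA activity bears on differentiation. The labels do not say in which medium the kinase was on, so the cells are named by medium. The sources used here name neither the strain of the line nor whether it is 1 clone.

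Retinoic acid is made inside cells from retinol, which serum carries. RDH enzymes oxidise retinol to retinaldehyde, and ALDH1A enzymes oxidise that to retinoic acid, which CRABP proteins bind in the cytoplasm and CYP26 enzymes break down. The retinoic acid receptors RARA, RARB and RARG pair with retinoid X receptors and bind DNA at direct repeats of a short half-site. In the gastrulating mouse embryo Aldh1a2 is active in mesoderm next to a zone of Cyp26a1 in the primitive streak region, and Cyp26a1, Dhrs3 and Rarb are textbook genes that retinoic acid itself induces.

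The starts of 8 of the 9 genes were matched to RefSeq promoter windows (GRCm38.p6, 17 windows in all, from 250 bases before to 50 bases after a start). The windows were searched on both strands for a pair of half-sites (AGGTCA or its variants AGTTCA and GGGTCA and also GGTTCA) in the same orientation, 5 bases apart (DR5), the spacing best known for these receptors. Matches were found for 2 of the genes, Cyp26a1 and Rarb, and DR5 matches stood in 0.0974% of all 32851 windows. Repeats with a spacing of 1 or 2 bases were found in no window of the 8 genes, against 0.222% and 0.268% of all windows. The pair is shown because these genes carry the same kind of repeat near their starts, while on D2.5 and D3.5 their signals went opposite ways between the media. Rarb was dim, at most at 33.0, and its difference reached 2-fold on D2.5 only. Capitals mark the repeat. In Cyp26a1 it lies on the strand opposite to the one printed, as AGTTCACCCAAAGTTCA, 32 to 16 bases before the annotated start (window chr19:37697558-37697857, plus strand). In Rarb it reads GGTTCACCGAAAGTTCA, 53 to 37 bases before the start (window chr14:16575427-16575726, minus strand). A match of letters is a description, and binding was not measured here.
Cyp26a1: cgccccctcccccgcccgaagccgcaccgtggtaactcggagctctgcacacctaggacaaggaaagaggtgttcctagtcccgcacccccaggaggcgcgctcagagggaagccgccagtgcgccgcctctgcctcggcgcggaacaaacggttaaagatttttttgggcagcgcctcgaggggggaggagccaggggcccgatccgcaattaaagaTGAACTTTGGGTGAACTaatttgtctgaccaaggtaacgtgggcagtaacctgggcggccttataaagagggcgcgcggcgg
Rarb: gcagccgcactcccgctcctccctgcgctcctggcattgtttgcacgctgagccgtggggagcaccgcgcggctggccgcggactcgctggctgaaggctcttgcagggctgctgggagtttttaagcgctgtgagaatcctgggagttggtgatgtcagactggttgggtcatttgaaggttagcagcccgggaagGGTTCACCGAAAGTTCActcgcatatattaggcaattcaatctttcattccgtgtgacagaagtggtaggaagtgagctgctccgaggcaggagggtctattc

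Values are array signals, scaled by the authors to a trimmed mean of 100 on each array. Signals of different genes come from different probes and are not compared as levels. Differences are Dox- minus Dox+ in log2(signal + 16), so changes of dim genes come out smaller than they are. Between 41.6% and 44.2% of genes reached a signal of 50 per array. A gene entered the tests with at least 50 on at least 2 arrays, as 8716 of 18193 genes did. Of the retinoic acid genes 4 passed: Crabp1, Crabp2, Rarg and Cyp26a1. The other 5 were dim, with a highest signal of 51.0 (Dhrs3), 33.0 (Rarb), 23.7 (Rara), 17.3 (Aldh1a2) and 11.8 (Stra6), and are described without that filter.

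The ES label was checked with 3 pluripotency genes. Zfp42 (Rex1), a marker of naive ES cells, lay at 63.1 to 1712 on the Dox- arrays and 71.2 to 1645 on the Dox+ arrays, and at 2834 in undifferentiated cells. Pou5f1 (Oct4) lay at 524 to 2614 in Dox-, at 2043 to 2724 in Dox+, and at 2263 in undifferentiated cells. Nanog lay at 306 to 1324 in Dox-, at 826 to 1887 in Dox+, and at 1630 in undifferentiated cells. Actb, whose probe sets at both ends of the transcript show RNA quality, had a 3'/5' ratio between 1.63 and 1.98 in Dox- and between 1.7 and 1.94 in Dox+. Its value of 1.63 on the Dox- array of D3.5 stood beside 1.94 on the Dox+ array of that day, and its part in the results of D3.5 was not tested.

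On D2.5 and D3.5 some of the retinoic acid genes differed between the media, and not all in the same direction. Cyp26a1 was far higher in Dox- cells on D2.5, whereas Crabp2, Rarb, Rarg and Dhrs3 were lower in Dox- on that day. On D3.5 Crabp1 and Cyp26a1 were higher and Dhrs3 lower in Dox-. Of the 9 genes, 0 differed by 2-fold or more on D0.5, where 0.11% of all 18193 genes were (0.066% higher, 0.044% lower). On D1.5 there was 1, Cyp26a1, while the other 8 lay between -0.56 and 0.33, against 1.6% of all genes (0.846% higher, 0.753% lower). On D2.5 there were 4 (Cyp26a1 higher, and Crabp2, Rarb and Rarg lower), against 4.62% of all genes (2.1% higher, 2.52% lower). On D3.5 there were 3 (Cyp26a1 and Crabp1 higher, Dhrs3 lower), against 5.81% (3.17% higher, 2.64% lower). The median difference of the 9 genes was -0.19, -0.06, -0.20 and 0.03 on the 4 days, and that of all genes lay between -0.02 and 0.03. These comparisons set 1 array against 1 array and carry no test. The count depends on the pseudocount for dim signals: it was 2 on D0.5 and 2 on D1.5 with a pseudocount of 1, and 0 on both days with one of 64.

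**Figure D1:**
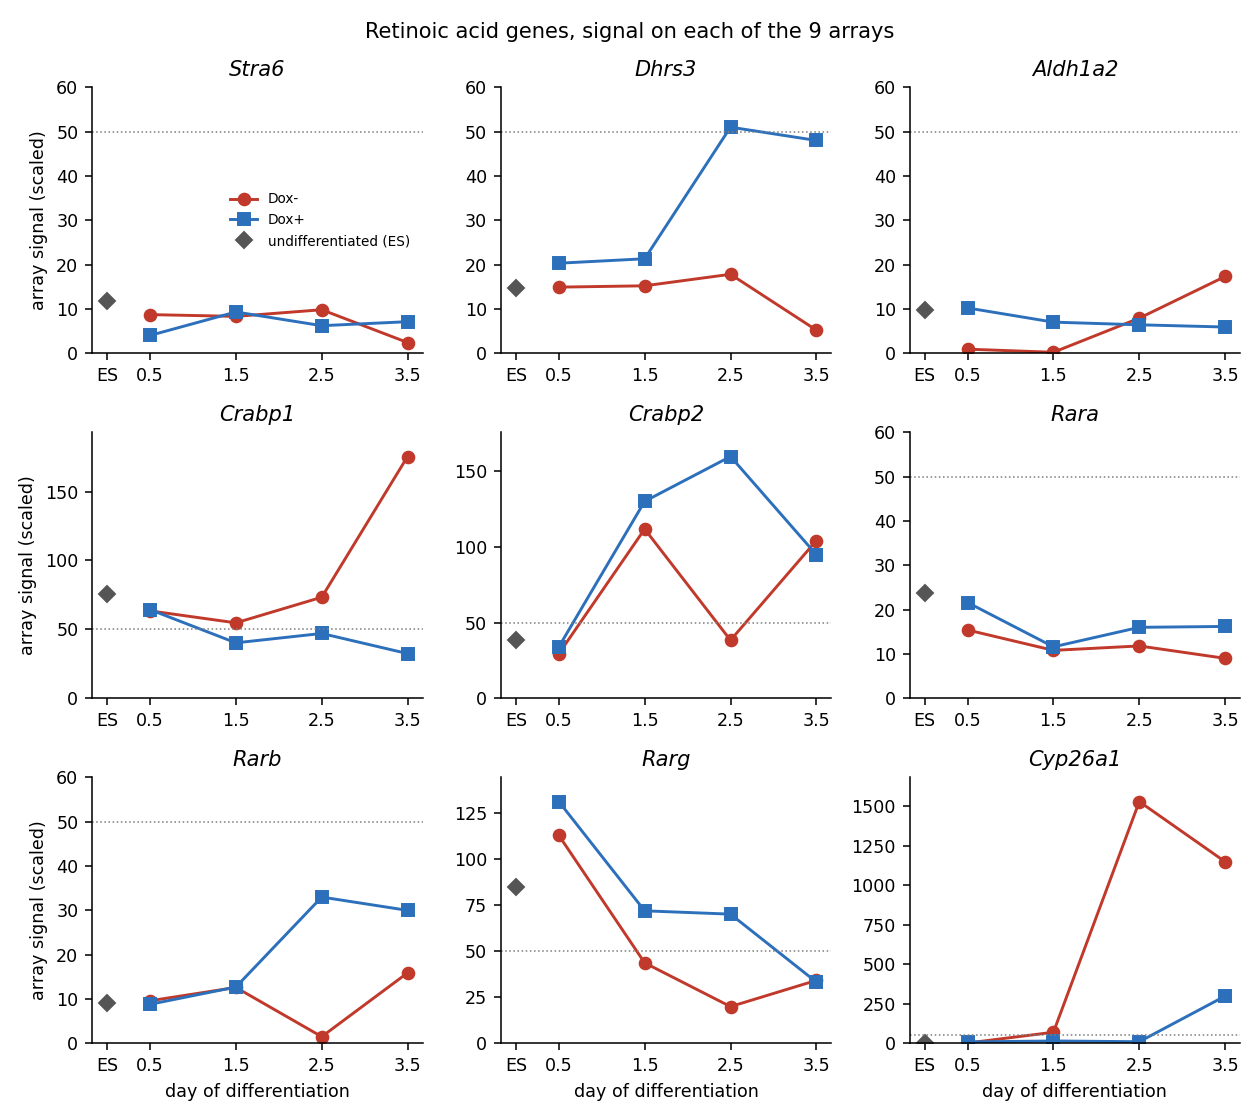
Signal of the 9 retinoic acid genes on each array (y axis, scaled array signal, linear, with a range of its own for each gene) by day of differentiation (x axis), with Dox- as red circles, Dox+ as blue squares and undifferentiated ES cells as a grey diamond. Each point is 1 array, and the dotted line marks a signal of 50. Cyp26a1 reached 1528 in Dox- cells on D2.5, and Stra6, Aldh1a2, Rara and Rarb stayed below 50 on all arrays.

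Stra6, the membrane receptor through which cells take up retinol from its carrier RBP4, stayed near the bottom of the scale. Its signal was 8.7, 8.3, 9.8 and 2.4 on the 4 Dox- arrays in order of day, 4.0, 9.3, 6.2 and 7.1 on the Dox+ arrays, and 11.8 in undifferentiated cells. No differentiating array exceeded the undifferentiated one, and the values of the media overlapped.

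Dhrs3 encodes the reductase that turns retinaldehyde back into retinol and so limits retinoic acid synthesis. It read 14.9, 15.2, 17.8 and 5.2 in Dox- cells on D0.5 to D3.5, against 20.3, 21.3, 51.0 and 48.0 in Dox+ cells, and 14.6 in undifferentiated cells. All 4 Dox- values were below all 4 Dox+ values, and the gap opened on D2.5, when Dhrs3 reached its highest signals in Dox+. The difference was -0.23, -0.26, -0.99 and -1.59 on the 4 days. The value of D2.5 thus lay just short of 2-fold. Dhrs3 missed the signal filter because only 1 array reached 50.

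Aldh1a2, which encodes the enzyme that makes most retinoic acid in the early mouse embryo, was dim throughout. Its signal was 0.9, 0.2, 7.9 and 17.3 in Dox- cells and 10.2, 7.0, 6.4 and 5.9 in Dox+ cells, with 9.8 in undifferentiated cells. Its highest value was that of Dox- cells on D3.5, and the sign of the difference changed between days, with -0.63 and -0.51 on the earlier 2 days and 0.09 and 0.60 on the later 2. Signals of this size had no detection call to set them against and are given as values only.

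Crabp1, a cytoplasmic retinoic acid binding protein, had its highest signal in Dox- cells and its lowest in Dox+ cells, both on D3.5. It read 63.4, 54.7, 73.3 and 175 on the Dox- arrays, 64.3, 40.2, 47.0 and 32.4 on the Dox+ arrays, and 75.5 in undifferentiated cells. The media were level on D0.5, with a difference of -0.02, and then parted by 0.33, 0.50 and 1.98 over the later 3 days. The Dox- array of D3.5 was the highest of the 9 and the Dox+ array of that day the lowest.

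Crabp2, the relative of Crabp1 known to carry retinoic acid to its receptors in the nucleus, had a different course. Its signal was 29.4, 112, 38.3 and 104 in Dox- cells on D0.5 to D3.5, against 33.9, 130, 160 and 94.8 in Dox+ cells, and 38.4 in undifferentiated cells. Crabp2 was higher on D1.5 than on D0.5 in both media, by 1.49 in Dox- and 1.55 in Dox+ cells. A day later it was at the undifferentiated level in Dox- cells and not in Dox+ cells, for a difference of -1.69 between the media. On D3.5 the media lay 0.12 apart.

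Rara, the most widely expressed of the receptor genes in mouse tissues, was dim and a little lower in Dox- on each day. It read 15.4, 10.8, 11.8 and 9.0 in Dox- and 21.6, 11.6, 16 and 16.2 in Dox+ cells, with 23.7 in undifferentiated cells. Differences lay between -0.37 and -0.04, none near 2-fold.

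Rarb, the receptor gene with the repeat shown above and a common readout of retinoic acid, was also dim. Its signal was 9.6, 12.6, 1.5 and 15.9 on the 4 Dox- arrays in order of day, 8.8, 12.7, 33.0 and 30.0 on the Dox+ arrays, and 9.0 in undifferentiated cells. The media were alike to within 0.05 on D0.5 and D1.5, and then differed by -1.49 and -0.53, lower in Dox- both times. Rarb and Dhrs3 thus had their highest signals on the same arrays, Dox+ on D2.5 and D3.5.

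Rarg, a receptor gene known from the posterior of the early mouse embryo, was lower on D3.5 than on D0.5 in both media. It read 113, 43.6, 19.9 and 34.1 in Dox- cells, 131, 71.8, 70.0 and 33.2 in Dox+ cells, and 84.7 in undifferentiated cells. Dox- cells reached a low level by D2.5, when the difference was -1.26, and the media met again on D3.5, with a difference of 0.03. The second, dim probe set of Rarg read 17.3, 1.4, 0.9 and 0.6 in Dox- and 15.3, 5.0, 0.7 and 0.4 in Dox+ cells, lower on D3.5 than on D0.5 in both media as well. Between the media of D2.5 it gave 0.02, where both its values were under 1 and could show no gap.

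Cyp26a1, whose enzyme hydroxylates retinoic acid and so clears it, was near the floor in undifferentiated cells and bright in Dox- cells of the later days. Its signal was 1.8, 70.0, 1528 and 1148 on the 4 Dox- arrays in order of day, against 8.8, 14.7, 10.1 and 299 on the Dox+ arrays, and 0.6 in undifferentiated cells. In order of level, the Dox- arrays of D2.5 and D3.5 stood first, then the Dox+ array of D3.5, then the Dox- array of D1.5, and the other 5 arrays lay between 0.6 and 14.7. The first 2 in that order were 0.41 apart, and without replicates it is not known whether that exceeds the spread. Its difference between the media ran -0.48, 1.49, 5.89 and 1.89 over the 4 days.

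**Figure D2:**
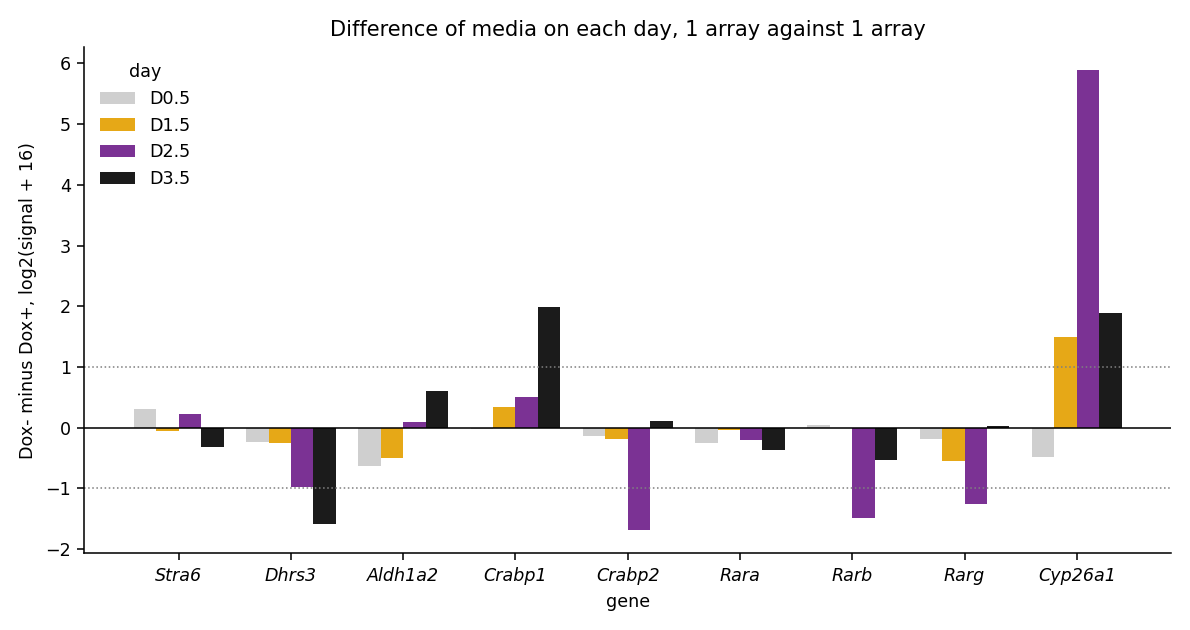
Difference of Dox- minus Dox+ for each retinoic acid gene (y axis, log2(signal + 16) scale) on D0.5, D1.5, D2.5 and D3.5 (bars from left to right within a gene), each from 1 array against 1 array. Dotted lines mark a 2-fold difference; Cyp26a1 reached 5.89 on D2.5, and Crabp2, Rarb and Rarg lay below -1 on that day.

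Cyp26a1 first reached 50 on D1.5 in Dox- cells, at 70.0, and on D3.5 in Dox+ cells, at 299. With arrays set a day apart, Dox- cells of D1.5 read 70.0 against 10.1 in Dox+ cells of D2.5, a difference of 1.72. Dox- cells of D2.5 read 1528 against 299 in Dox+ cells of D3.5, a difference of 2.30. Between those last arrays Rarb differed by -1.39, Crabp2 by -1.03, Dhrs3 by -0.92 and Rarg by -0.45. Between Dox- cells of D1.5 and Dox+ cells of D2.5 these genes differed by -0.78, -0.46, -1.10 and -0.53, in the same order. Each pair sets 1 array against 1 array, and a shift in timing between the media was not tested.

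The tests joined arrays across days or media. With the 4 days as repeats of the comparison of media (limma, day as a block, 8 arrays), 0 of 8716 genes passed a Benjamini-Hochberg adjusted p under 0.05, 0% of all tested, and 1026 had an unadjusted p under 0.05. None of the 4 tested retinoic acid genes was among those 1026. Cyp26a1 differed by 2.20 ± 0.93 (SE, 4 days; limma adjusted p = 0.423), higher in Dox- on 3 of 4 days, and by 0.96 without the D2.5 arrays. Crabp1 differed by 0.70 ± 0.33 and Rarg by -0.50 ± 0.23 (limma adjusted p = 0.431 for each), and Crabp2 by -0.48 ± 0.31 (0.52). Without D3.5 the value of Crabp1 was 0.27, and without D2.5 that of Crabp2 was -0.07 and that of Rarg -0.24. The fit takes a difference that varies from day to day as spread. A steady change of the difference with day was also called for 0 of 8716 genes (0%, with 1103 at an unadjusted p under 0.05). Among these 1103 was Crabp1, whose difference grew by 0.62 ± 0.17 per day (limma adjusted p = 0.27), and by 0.26 without the D3.5 arrays.

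Cyp26a1 was called higher in Dox- when a single difference was fitted to D2.5 together with D3.5, with D0.5 and D1.5 adding to the spread alone. This comparison was chosen with earlier results of these data known, so its p-values describe these arrays. It called 1 of the 4 tested genes, against 7.18% of all tested genes (2.83% higher and 4.35% lower). Cyp26a1 differed by 3.89 ± 0.87 (SE, 2 days; limma adjusted p = 0.0438). It passed the signal filter on 3 Dox- arrays and 1 Dox+ array, so Dox- alone let it in. Of 11 alternative settings 6 ended the call, among them leaving out D0.5 (limma adjusted p = 0.105) or D2.5. Without D2.5 its difference was 1.89, that of the D3.5 arrays alone. Crabp1 gave 1.24 ± 0.33 (limma adjusted p = 0.0725), Crabp2 -0.79 ± 0.38 (0.248) and Rarg -0.62 ± 0.33 (0.303). Without D2.5 the value of Crabp1 was 1.98, and without D3.5 that of Crabp2 was -1.69. Each is the difference of 1 array against 1 array, on the day with the wider gap, and cannot show whether it repeats.

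Fitted over all 18193 genes, with no filter on dim ones, the same comparison called Dhrs3 lower in Dox- by -1.29 ± 0.23 (SE, 2 days; limma adjusted p = 0.0357). In that fit 2.66% of genes were called (1.53% lower), and Dhrs3 was the 1 call among the 9 genes. Rarb gave -1.01 ± 0.24 (0.083) and Cyp26a1 3.89 ± 0.86 (0.0695). Rara, Stra6 and Aldh1a2 had adjusted p of 0.459, 0.918 and 0.549.

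With both media together, Cyp26a1 rose and Rarg fell between D0.5 and D3.5. Of the 4 tested genes these 2 were called (limma, medium as a block), against 22% of all tested genes (11.8% higher and 10.2% lower). Cyp26a1 was higher on D3.5 by 4.85 ± 1.32 (SE, 2 media; limma adjusted p = 0.0463). Rarg was lower, at -1.47 ± 0.33 (limma adjusted p = 0.0276). Crabp2 gave 1.28 ± 0.43 (0.0832) and Crabp1, whose courses ran apart in the media, 0.27 ± 0.47 (0.703). The call of Cyp26a1 ended in 7 of 10 alternative settings (adjusted p from 0.0116 to 0.0964) and that of Rarg in 2 of 10 (0.0136 to 0.053). Without the D1.5 arrays the adjusted p was 0.0708 for Cyp26a1 and 0.0509 for Rarg. Crabp2 passed without the D2.5 arrays (limma adjusted p = 0.017).

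Markers of other cell states also differed between the arrays. Their sums lean to the brightest probes. The summed signal of 11 primitive streak genes was 147, 345, 7033 and 4157 on the 4 Dox- arrays in order of day, 123, 109, 161 and 2343 on the Dox+ arrays, and 83.1 in undifferentiated cells. This sum was high on the same 3 arrays on which Cyp26a1 read 299 or more. The 10 lateral plate and heart genes summed to 114, 178, 1362 and 5184 in Dox-, and to 130, 72.0, 59.9 and 243 in Dox+. The Dox- array of D3.5 was highest, as for Crabp1. Undifferentiated cells gave 398.5, above every Dox+ array, with Bmp4 alone at 311.6. At least 2-fold higher in Dox- were 11 of the 11 streak genes on D2.5 and 8 of the 10 lateral plate and heart genes on D3.5. A 2-fold gap was rarer among the 11 streak genes on D3.5. There 3 were higher in Dox- and 1, Fgf8, lower, against 3.17% and 2.64% of all genes. The widest gaps of that day were those of Cdx2, at 914.7 in Dox- against 42.0 in Dox+, and Nkx1-2, at 771.4 against 46.1. Eomes, at 540.3 against 911.4, and Gsc, at 25.5 against 41.0, read lower in Dox- on D3.5, as Fgf8 did. The 8 primed epiblast genes summed to 7087, 9334, 4655 and 1823 in Dox- and to 6862, 9725, 9037 and 7600 in Dox+ cells. The 11 naive genes summed to 4239, 363, 526 and 1571 in Dox- and to 4099, 1018, 357 and 277 in Dox+ cells. Their sum was thus lower in Dox- on D1.5 and higher on D2.5 and D3.5. On D3.5 Tbx3 made up much of it, at 1061 in Dox- against 58.6 in Dox+. At least 2-fold higher in Dox- on that day were 4 of the 11 and lower 0, against 3.17% and 2.64% of all genes. The 10 extraembryonic endoderm genes summed to 291 to 924 in Dox- and to 309 to 893 in Dox+, with Afp and Apoa1 under 50 on all arrays. Apoe was the brightest of the 10 except in Dox- cells of D2.5 and D3.5. There Gata6 read 280.4 and 335, and Apoe 163.5 and 255.9. By single genes, a 2-fold difference was reached on D1.5 by 2 of these 10, both higher in Dox-, against 0.846% of all genes. On D2.5 there were 4 higher and 1 lower, against 2.1% and 2.52%. On D3.5 there were 5 higher and 1 lower, against 3.17% and 2.64%. Sox17, a regulator of endoderm, read 2.3, 100.2, 90.0 and 85.2 in Dox- cells over the 4 days, against 6.1, 12.3, 7.2 and 14.2 in Dox+ cells. Gata6, a regulator of both primitive endoderm and heart, read 24.0, 35.5, 280.4 and 335 in Dox-, against 15.3, 9.8, 5.6 and 58.6 in Dox+. It was the 1 gene of this list called higher in the fit of the later days (3.01 ± 0.44, limma adjusted p = 0.0116). Without its Dox- arrays Gata6 would not have passed the signal filter, and that fit was chosen with earlier results of these data known. Sox17 and Gata6 were both higher in Dox- on the days on which Cyp26a1 was, but not all genes of this list were. Foxa2 read 79.7 in Dox- against 13.5 in Dox+ on D2.5, and 11.5 against 78.6 on D3.5. Apoe read 163.5 in Dox- against 694.1 in Dox+ on D2.5. The 8 neural genes summed to 207.5, 209, 113 and 92.4 in Dox- and to 213, 203, 216 and 179 in Dox+. Of these 8, 6 were dim. At least 2-fold lower in Dox- were 2 of them on D2.5 and 1 on D3.5, against 2.52% and 2.64% of all genes, and 0 were higher. The 7 fibroblast genes summed to 40.2, 117, 111 and 376 in Dox- and to 44.4, 169, 205 and 167.5 in Dox+. On D2.5, 1 of the 7 was 2-fold lower in Dox- and 0 higher. On D3.5, 3 were higher and 1 lower, against 3.17% and 2.64% of all genes. No marker was at 0 on all arrays. The part of a changed mix of cells in the results was not tested, and in bulk RNA fewer cells of a type and less RNA per cell cannot be told apart.

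Smad5, Aplnr and Tmem185a had the courses most like that of Cyp26a1, with Pearson's r of 0.994, 0.991 and 0.989 over the 9 arrays. The arrays share a time course, so these coefficients describe and carry no p. Aplnr, the apelin receptor gene, read 0.7, 124, 2154 and 1412 in Dox- and 7.2, 1.0, 1.2 and 418 in Dox+ cells. Smad5, a mediator of BMP signals, read 131, 157, 257 and 251 in Dox- and 135, 141, 140 and 198 in Dox+. Like Cyp26a1, both were higher in Dox- on D1.5 to D3.5, and both had their highest Dox+ signal on D3.5. The genes most like Rarg were Nup88, Stoml1 and Arrdc3 (r of 0.975, 0.970 and 0.968). For Crabp2 they were Syde2, Gpr137b-ps and Bahd1 (0.986, 0.977 and 0.974), and for Crabp1 Dda1, Nmb and Brf1 (0.964, 0.962 and 0.954). Among the 4 tested retinoic acid genes, Cyp26a1 and Rarg ran most opposite, with r of -0.91 and Spearman's rho of -0.9.

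**Figure D3:**
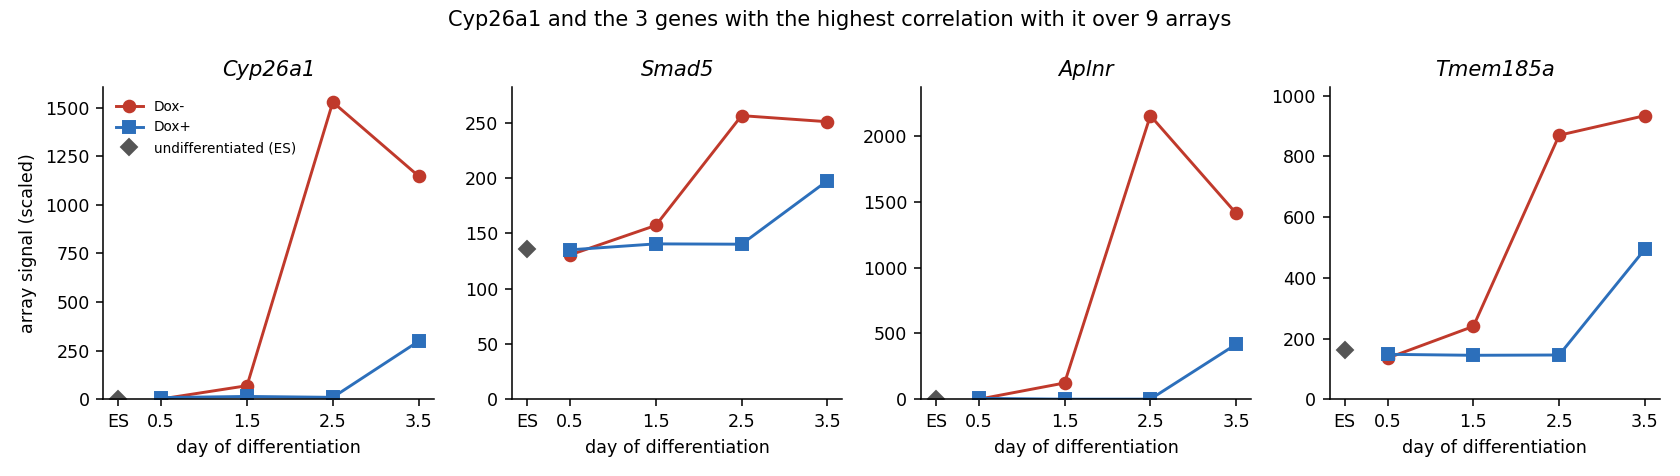
Signal (y axis, scaled array signal, linear, each gene on its own range) of Cyp26a1 and of the 3 tested genes with the highest Pearson correlation with it over 9 arrays, by day (x axis), with Dox- as red circles, Dox+ as blue squares and undifferentiated cells as a grey diamond. All 4 genes were higher in Dox- from D1.5 on and had their highest Dox+ signal on D3.5, at 299 for Cyp26a1 and 418 for Aplnr.

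Other enzymes and carriers of the pathway were followed in the same fits. Of 21 such genes 18 had a probe set and 8 passed the filter. Between D0.5 and D3.5, 4 of the 8 were called higher and 0 lower, against 11.8% and 10.2% of all tested genes. Rdh11, a retinaldehyde reductase, gave 2.29 ± 0.15 (SE, 2 media; limma adjusted p = 0.00292), and Fabp5, a fatty acid binding protein that can also carry retinoic acid, 1.41 ± 0.12 (0.0035). Rbp4, the retinol carrier of blood, gave 1.08 ± 0.27 (0.0376), and Rdh14, a further reductase, 0.76 ± 0.17 (0.0276), although its dimmer probe sets gave 0.21 and -0.03. Between the media 0 of the 18 were at least 2-fold apart on any day, against 0.11% to 5.81% of all genes (a count near that background), and 0 of the 8 passed in the fit of those later days, D2.5 with D3.5. Rdh10, which makes the retinaldehyde that Dhrs3 turns back, read 62.8 to 108 in Dox- and 66.4 to 109 in Dox+. The other synthesis genes Aldh1a1 and Aldh1a3 and the other breakdown gene Cyp26b1 were dim, at most at 7.9 on any array.

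Of 11 retinoid X receptor and coregulator genes 9 had a probe set and 6 passed the filter. The coactivator Ncoa2 was called higher on D3.5 than on D0.5 (0.81 ± 0.12, limma adjusted p = 0.00993), and the coactivators Ncoa3 (-1.44 ± 0.19, 0.00773) and Ncoa1 (-0.98 ± 0.27, 0.0486) were called lower, 3 of 6 against 22% of all tested genes. Rxrb, a partner of the receptors, read 212 to 285 in Dox- and 212 to 253 in Dox+ cells. On each day 0 of the 9 genes were at least 2-fold apart between the media, which is near the 0.11% to 5.81% of all genes.

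Genes known to respond to retinoic acid did not all go the way of Dhrs3 and Rarb. Of 18 listed 15 had a probe set and 4 passed the filter. On D2.5, 6 of the 15 exceeded a 2-fold difference upward in Dox- and 0 downward, against 2.1% and 2.52% of all genes. On D3.5 it was again 6 upward and 0 downward, against 3.17% and 2.64%. The transcriptional regulators Zfp703 and Tshz1 were called higher in Dox- on D2.5 and D3.5 together, by 2.78 ± 0.34 (SE, 2 days; limma adjusted p = 0.00703) and 1.86 ± 0.26 (0.0102). The other probe sets of Zfp703, both dim, gave -0.06 and -0.25, and the second of Tshz1 gave 0.96. Both genes passed the signal filter on Dox- arrays alone. Meis2, a homeobox gene, read 345 in Dox- against 27.5 in Dox+ cells of D2.5. A day later it read 152 in Dox- against 167 in Dox+ cells. The anterior Hox genes Hoxb1 and Hoxb2, picked after their values were seen, read 65.2 and 315 in Dox- on D3.5, against 11.8 and 14.5 in Dox+. Both missed the signal filter. The listed Hoxa3 and Hoxb4 were dim. Hoxa3 was lower in Dox- on both later days, at 7.3 against 11.8 and 5.3 against 8.5. Hoxb4 read 4.2 in Dox- against 9.3 on D2.5, and 22.4 against 2.1 on D3.5. Stra8, a germline gene named for its induction by retinoic acid, was called lower on D3.5 than on D0.5 (-3.74 ± 0.36, limma adjusted p = 0.0038), and was the 1 listed gene at least 2-fold lower in Dox- on D1.5, at 9.8 against 40.8. The streak and lateral plate sums given above were also higher in Dox- on D2.5 and D3.5. For the streak list this did not hold gene by gene on D3.5, when Eomes, Fgf8 and Gsc read lower in Dox-. The part of both lists in the differences of the responsive genes was not tested.

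**Figure D4:**
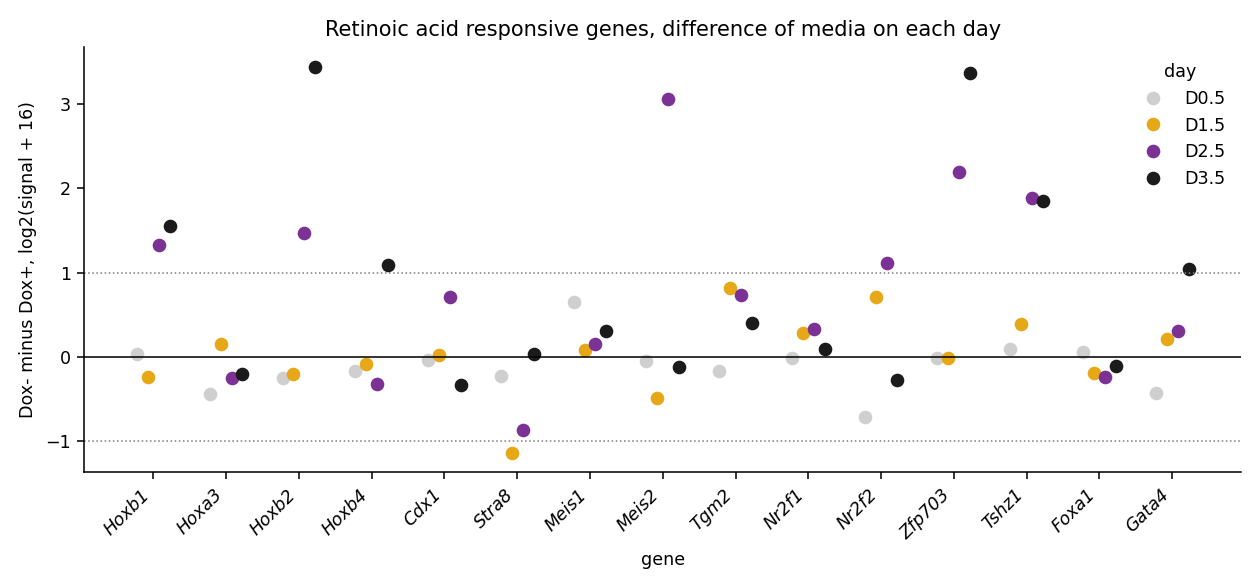
Difference of Dox- minus Dox+ (y axis, log2(signal + 16) scale) on D0.5, D1.5, D2.5 and D3.5 for the 15 retinoic acid responsive genes with a probe set, each point from 1 array against 1 array. Dotted lines mark a 2-fold difference; 6 genes of D2.5 and 6 of D3.5 lay above it, and Stra8 lay below it on D1.5.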

How the data were processed

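Per the submitters' processing notes, GCOS, the Affymetrix software, produced the signals; the sources used here give no version or background step. The intensity of each probe set was deposited by the authors on a linear scale for 9 arrays. The labels name a scaling to 100, and the mean without the highest and lowest 2% of the 45101 probe sets was 100 on each array, so no further normalization was applied. No scanner files or detection calls were used here. Of the probe sets, 34945 had 1 gene symbol, 932 several and 9224 none here. Symbols were updated through gene IDs with the RefSeq table of GRCm38.p6, which also gave the promoter windows.

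Values were taken as log2(signal + 16). Genes with at least 50 on at least 2 arrays were fitted with limma 3.58.1 (R 4.3.3, eBayes with a mean-variance trend) on the 8 differentiating arrays, with 3 residual degrees of freedom (2 for the change with day) and Benjamini-Hochberg adjustment over all genes fitted. Days stood in for replicates of the media, and media for replicates of the days. P-values thus measure the spread between these arrays, and their number limits the precision. Genes named by rule are the 9, and listed pathway genes called in a fit or tested and 2-fold apart. The 3 most correlated genes of each tested member of the 9 are also named. Further pathway and marker genes are named outside that rule, with Hoxb1 and Hoxb2 picked after their values were seen. The genes, lists and fits were chosen with earlier results of these data known. Pseudocount, filter, normalization, probe sets, variance model and left-out days were varied.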

Additional observations from a re-analysis of the deposited data

How the results depend on the processing

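The labels give no replicate numbers to pair by, and arrays of 1 day were paired across the media through the day block. The count of the 4 genes called in the comparison of D3.5 and D0.5, 2 as reported, was 1 with a pseudocount of 64, with no filter on dim genes, with quantile normalization, with the mean of all probe sets or with a robust variance without trend. It was 0 without the medium block and 0 to 3 when D1.5 or D2.5 was left out. For the single difference over D2.5 with D3.5, 1 as reported, it was 0 with a pseudocount of 1, with the mean of all probe sets or with the robust variance, and 0 to 2 when a day was left out. Calls over all genes in that comparison, 626 as reported, were 228 to 791 when a day was left out. Genes at least 2-fold apart numbered 2 on D0.5, 2 on D1.5 and 5 on D3.5 with a pseudocount of 1, and 0 on D1.5 and 2 on D2.5 with one of 64. The change of the difference with day turned sign for Rarg, at 0.013 with a pseudocount of 64, 0.0013 with the mean of probe sets and -0.53 to 0.29 when a day was left out. For Crabp2 it was -0.78 to 0.15, for Crabp1 0.26 to 0.83 and for Cyp26a1 0.20 to 3.18. The comparison of media over 4 days gave 0.96 to 3.09 for Cyp26a1, 0.27 to 0.94 for Crabp1, -0.67 to -0.07 for Crabp2 and -0.67 to -0.24 for Rarg. The single difference over D2.5 with D3.5 was -1.26 to 0.026 for Rarg and -1.69 to 0.12 for Crabp2 when a day was left out. With D2.5 or D3.5 left out, that difference and the calls counted for it rest on 1 late array per medium. The causes were not tested. The comparison of media over 4 days and the change with day called 0 genes under each alternative run. Of 276 values computed under alternatives, 231 kept their direction and their side of the threshold, or stayed within 1.5 times for counts. Of the 9 genes 5 were too dim for this signal to show small changes.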
